A study of Mus musculus with 32 samples.

Results

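Spinal cords of mice that received Nkx6.1 after spinal cord injury were compared with injured cords that received the control treatment, 35 days after injury. The comparison used the 3 libraries labelled Nkx6.1 and the 4 libraries labelled control at that time, 7 of the 32 bulk RNA-seq libraries of the series, and the members were taken from the sample titles. All mice were C57BL/6J and 8 to 12 weeks old, and both groups carried the injury. The tissue was cord parenchyma on either side of the lesion. Values of sham-operated cords (3 libraries) and Gsx1-treated injured cords (4 libraries) at 35 days are given only where these are named. The same holds for Nkx6.1 and control cords at 3 days (3 libraries each). Unless another fit is named, all 32 libraries set the expression filter and the spread behind each p-value and interval. How Nkx6.1 was delivered, to which cells, what the control treatment contained and at which vertebral level the injury lay is not stated in the labels. The labels do not tie a library to an animal, so the p-values rest only on the spread between libraries, estimated over all 10 groups.

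Nkx6.1, encoded by Nkx6-1, is a homeodomain transcription factor of the ventral neural tube, where it acts mostly as a repressor and is needed for motor neuron and ventral interneuron fates. After a cord injury, resident microglia and blood-borne macrophages become lipid-laden phagocytes, astrocytes become reactive, and fibroblasts of the meninges and vessel walls lay down a fibrotic scar. Several weeks after injury these cells persist around the lesion while the spared neurons stay outside it, so RNA from a block of tissue holds both. In such bulk RNA, fewer cells of a type and less RNA per cell cannot be told apart.

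Total counts were 15.5, 11.7 and 15.9 M (mega counts) in the 3 Nkx6.1 libraries and from 13.2 to 14.7 M in the 4 control libraries. Some libraries stood apart from their group before any test. Nkx6.1 replicate 3 had a mean log2 CPM (CPM, counts relative to the TMM-scaled library total) of 3.13 over 14 skeletal muscle genes, against -0.46 and 0.22 in Nkx6.1 replicates 1 and 2, and 4.56 over 22 type I interferon genes, against 2.77 and 2.36. Control replicate 4 had the lowest mean over 20 pan-neuronal genes, at 7.65, against 8.45 to 8.53 in the other control libraries. It also held transcripts of both Xist, made by the inactive X chromosome, at 676 CPM and of the Y-linked Ddx3y at 32.1 CPM. Xist was 666 CPM in Nkx6.1 replicate 2 and 407 CPM in control replicate 1, and at most 4.39 CPM in the other 4 libraries, so each group held libraries high and low in Xist.

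No gene passed the test between Nkx6.1 and control cords at 35 days. edgeR's quasi-likelihood F test covered 16314 genes, of which 0 (0%) had a Benjamini-Hochberg adjusted p under 0.05, and the smallest adjusted p was 0.326. DESeq2 also called 0 genes. At an unadjusted p under 0.05 edgeR counted 2006 genes (12.3%) and DESeq2 2143. Of edgeR's 2006, 1417 were lower in Nkx6.1 cords (8.69% of all genes) and 589 higher (3.61%). The CPM of the groups did not overlap for 331 genes that were higher (2.03%) and 419 that were lower (2.57%) in Nkx6.1 cords. With 3 against 4 libraries, shares of this size arise without any difference between the groups. A lack of overlap alone therefore does not mark a gene as changed. The median log2 fold change over all genes was -0.03, and 54.7% of genes lay below 0.

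A result of 0 calls did not show that the groups were alike. Of the 11157 genes with a mean of at least 10 CPM in the 7 libraries, 90.6% had a 95% interval that stayed within a 2-fold change either way, so large changes of abundant genes were bounded, and smaller ones were not. The count turned on single libraries. Without Nkx6.1 replicate 3, 5 genes were higher (0.0303% of 16501) and 67 lower (0.406%), and without control replicate 1, 0 were higher and 7 lower. Without any 1 of the other 5 libraries 0 genes were called. A fit of the 7 libraries alone called 1 gene, Hoxc12, as higher. It had 539 of 15480 genes at an unadjusted p under 0.05 by edgeR, against 2006 of 16314 in the fit of all 32 libraries. The share in the 7 libraries alone was thus below the 0.05 that no difference would give. Only the fit with the spread of all 10 groups had a share above it. The intervals above and the list counts at that threshold below come from the fit of all 32 libraries.

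Nkx6-1 (chromosome 5, 101658139 to 101664996, minus strand, GRCm38) was detected in every cord and was not higher in the Nkx6.1 group. It had 8.4, 7.9 and 12.4 CPM in Nkx6.1 cords, against 12.6, 9.79, 10.2 and 11.4 CPM in control cords. The groups overlapped, and the log2 fold change was -0.20 ± 0.21 (SE), with a 95% interval of -0.63 to 0.23 and an adjusted p of 0.679 by edgeR. The interval excludes a 2-fold higher level of transcripts counted under this symbol. Whether RNA from the delivered copy would be counted there is not stated. Gsx1, the factor given to the other treated cords, had 1, 0 and 3 reads in Nkx6.1 cords, against 4, 1, 0 and 3 reads in control cords, and was below the expression filter. Without the filter its log2 fold change was -0.65 ± 0.99 (SE; edgeR adjusted p 0.847).

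Hox genes of the caudal cord separated the groups. Hox genes encode homeodomain factors that mark position along the head-to-tail axis, and members with higher numbers are expressed further caudally. Hoxc13 came from the rule for named genes, and the other Hox genes were looked up after its values were seen. All 5 tested Hox genes numbered 11 to 13 were higher in every Nkx6.1 library than in every control library (2.03% of all genes were separate and higher, and 2.57% separate and lower), with a median log2 fold change of 3.14. Of the 3 tested members numbered 10, 1 was separate and higher, and of the 4 numbered 9 none was separate. Of the 22 numbered 1 to 8, none was separate and higher, 2 were separate and lower, and their median was -0.17. No Hox gene passed adjustment.

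Hoxc12 (chromosome 15, 102936757 to 102938609, plus strand) had 3.5, 4.91 and 4.48 CPM in Nkx6.1 cords, against 0, 0, 0.0738 and 0 CPM in control cords. That is 184 reads against 1 read, a ratio of 231 with a counting interval of 40.9 to 9170, which covers counting error only. Its fitted log2 fold change was 7.32 ± 2.26 (SE; edgeR adjusted p 0.335) and depends on the prior count. Hoxc13, its neighbour (102921103 to 102928814), had 1.27, 2.66 and 3.01 CPM in Nkx6.1 cords, against 0.0796, 0.0675, 0 and 0 CPM in control cords. Hoxd11 (chromosome 2, 74679557 to 74687016, plus strand) had 14.6, 21.5 and 17 CPM in Nkx6.1 cords, against 4.22, 2.83, 0.664 and 0.297 CPM in control cords. Within the control group replicate 1 was the highest for Hoxd11 and still lay far below the lowest Nkx6.1 library. Hoxd10, which patterns lumbar motor neurons, had 35.4, 38.7 and 31.5 CPM in Nkx6.1 cords, against 19.9, 11.5, 9 and 10 CPM in control cords. Hoxc9, which is typical of thoracic cord, overlapped, at 21.2, 17 and 17.4 CPM in Nkx6.1 cords and 33.9, 17.1, 19.8 and 33.4 CPM in control cords.

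**Figure D1:**
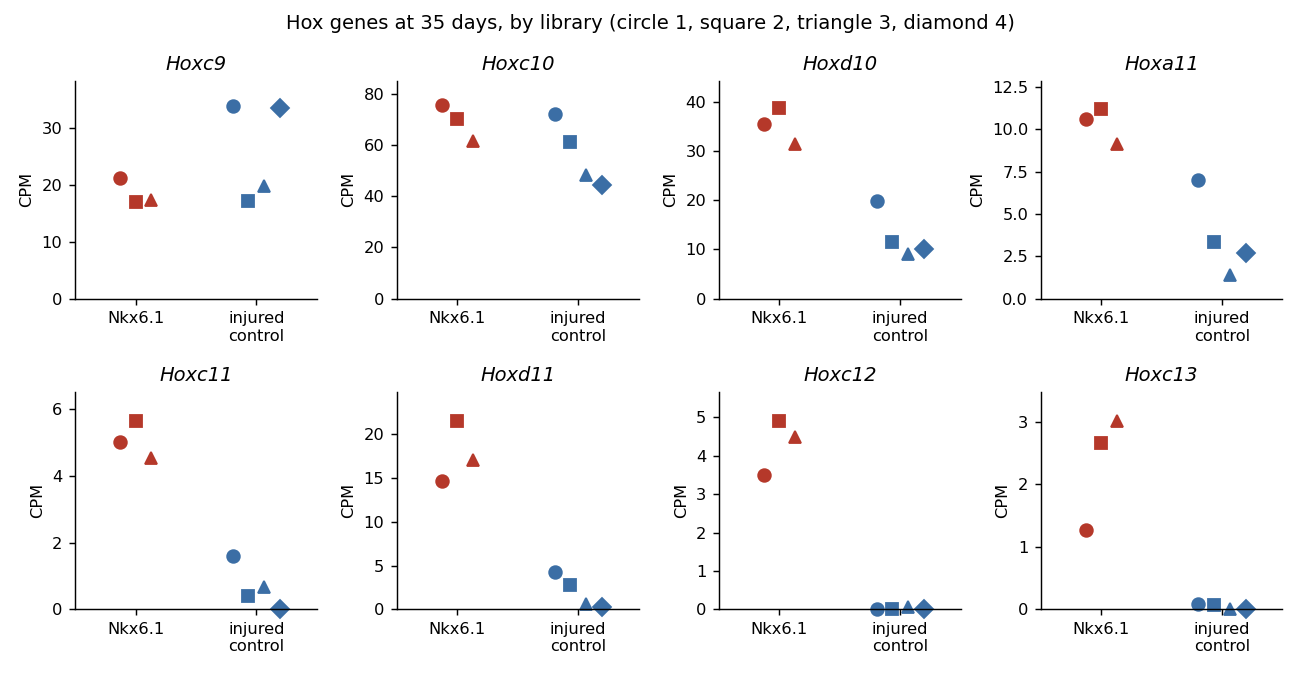
CPM (y axis, linear from 0) of 8 Hox genes in each library at 35 days, with Nkx6.1 cords on the left (red, 3 libraries) and injured control cords on the right (blue, 4 libraries). Hoxc12 lies between 3.5 and 4.91 CPM in Nkx6.1 cords and at or below 0.0738 CPM in control cords, while Hoxc9 overlaps.

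The same caudal Hox genes varied within other groups. Summed over 10 genes (Hoxd10 and all detected members numbered 11 to 13), they reached 70.6, 85.3 and 71 CPM in Nkx6.1 cords, against 32.8, 18.2, 11.8 and 13 CPM in control cords at 35 days. Hoxa10 and Hoxc10, whose groups overlapped, were left out of the sum, while Hoxd10, whose groups were separate, was kept. The gap between these groups in the sum therefore follows in part from the choice of genes. Gsx1 cords at 35 days had 50.4, 18.3, 57 and 8.33 CPM and sham cords 23.6, 24.5 and 40.2 CPM. Since these genes mark position along the cord, the position of the tissue block and the treatment cannot be told apart in the 7 libraries. A fit over all 32 libraries with the log2 of this sum as a covariate, added after seeing the data, called 0 genes, with 859 at an unadjusted p under 0.05. Its medians stand beside immune, scar and neuronal lists below, and they share the limit from the choice of genes. Not every list moved toward 0 with it. The neutrophil median was -0.68 with all 7 libraries and -1.30 with the covariate, and the B and plasma cell median -0.37 and -0.51.

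The promoter of Hoxd11 holds a homeodomain core, TAATTA, 81 bases before its start, which is shown because Hoxd11 is one of the separate members and Nkx6.1 is itself a homeodomain factor. The stretch is from RefSeq (GRCm38.p6, chr2:74679432-74679527, plus strand), with the core in capitals.
Hoxd11: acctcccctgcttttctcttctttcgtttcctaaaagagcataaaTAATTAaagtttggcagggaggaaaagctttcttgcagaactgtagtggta
Windows from 250 bases before to 50 after the start were matched by symbol for 11851 of the tested genes, and 2.63% of them hold TAATTA, which reads the same on both strands. Of the 6 caudal Hox genes tested, 3 had a window and 1 of these holds the core. Of the 20 genes of smallest p (10 in each direction), 13 had a window, and 0 hold the core. These are matches of letters and show no binding.

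Among the genes with higher values in Nkx6.1 cords, the 10 of smallest p without overlap between the groups were Gas2, Ccdc65, Gabra4, Hoxc13, Arhgap24, Myt1, St3gal5, Mppe1, Zranb2 and Coro2a. None passed adjustment, with adjusted p from 0.326 to 0.335 by edgeR. Gas2 (chromosome 7, 51862015 to 51994975, plus strand), a protein that links actin filaments and microtubules, had 20.9, 20.4 and 19.9 CPM in Nkx6.1 cords, against 13.9, 13.2, 12.9 and 14.6 CPM in control cords. Both groups were tight, and the log2 fold change was 0.58 ± 0.15 (SE; edgeR adjusted p 0.326). Gabra4 (chromosome 5, 71569749 to 71658308, minus strand), a subunit of extrasynaptic GABA-A receptors, had 19.2, 22.5 and 18.1 CPM in Nkx6.1 cords, against 12.1, 16.9, 14.9 and 8.7 CPM in control cords. Arhgap24, a GTPase-activating protein for Rac, had 24.2, 21.4 and 22.5 CPM in Nkx6.1 cords, against 13.7, 17.8, 17.5 and 15.8 CPM in control cords. The groups lay close together for this gene, with a log2 fold change of 0.49 ± 0.14 (SE).

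Myt1, a zinc finger factor of neural progenitors and the oligodendrocyte lineage, had 16, 17.9 and 12.5 CPM in Nkx6.1 cords, against 5.73, 12.4, 11 and 10.9 CPM in control cords. The lowest Nkx6.1 library was barely above the highest control library. St3gal5, which makes the ganglioside GM3, had 78.1, 75.9 and 75 CPM in Nkx6.1 cords, against 56.4, 67.2, 62.6 and 42.2 CPM in control cords. Ccdc65, a part of the ciliary dynein regulatory complex, had 7.19, 8.98 and 6.02 CPM in Nkx6.1 cords, against 4.78, 3.64, 4.21 and 5.28 CPM in control cords. Mppe1, Zranb2 and Coro2a, which act in GPI-anchor remodelling, in splicing and on actin, had log2 fold changes of 0.44, 0.31 and 0.57. Apart from Hoxc13, the 10 values lay between 0.31 and 0.72.

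Among the genes with lower values in Nkx6.1 cords, those of smallest p without overlap included Ptges, Ick, Osgin2, Wdr62, Ppp1r12a, Pon3, Tfpi, Perp and Isyna1, all with an adjusted p of 0.326 by edgeR. Ptges (chromosome 2, 30889471 to 30929863, minus strand), the inducible prostaglandin E synthase, had 5.15, 3.91 and 5.96 CPM in Nkx6.1 cords, against 8.92, 11.9, 10.8 and 14.7 CPM in control cords. Every control library was well above every Nkx6.1 library, and without Nkx6.1 replicate 3 the log2 fold change was -1.35 (adjusted p 0.0484), against -1.21 with all libraries. Pon3, a lactonase carried on lipoproteins, had 4.39, 4.07 and 7.5 CPM in Nkx6.1 cords, against 9.08, 10.5, 11.6 and 13.7 CPM in control cords. It too passed without Nkx6.1 replicate 3, at -1.40 (adjusted p 0.0484).

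Tfpi, the inhibitor of the tissue factor pathway of clotting, had 4.96, 4.91 and 7.24 CPM in Nkx6.1 cords, against 8.76, 9.11, 13.1 and 29.2 CPM in control cords. Control replicate 4 was the highest library by far for Tfpi and also for Isyna1, an enzyme of inositol synthesis, which had 32.6, 27.7 and 29.1 CPM in Nkx6.1 cords, against 36.3, 46.2, 45.4 and 125 CPM in control cords. Wdr62, a centrosomal and spindle protein, had 2.1, 3.08 and 3.2 CPM in Nkx6.1 cords, against 5.33, 3.98, 6.64 and 9.29 CPM in control cords. Ick, a kinase of the primary cilium, was tighter, with 32.6, 36.1 and 32.9 CPM in Nkx6.1 cords, against 42, 43.3, 46.3 and 52.7 CPM in control cords. Osgin2, Ppp1r12a (the targeting subunit of myosin phosphatase) and Perp (a junction protein of epithelia) had log2 fold changes of -0.48, -0.36 and -1.41.

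**Figure D2:**
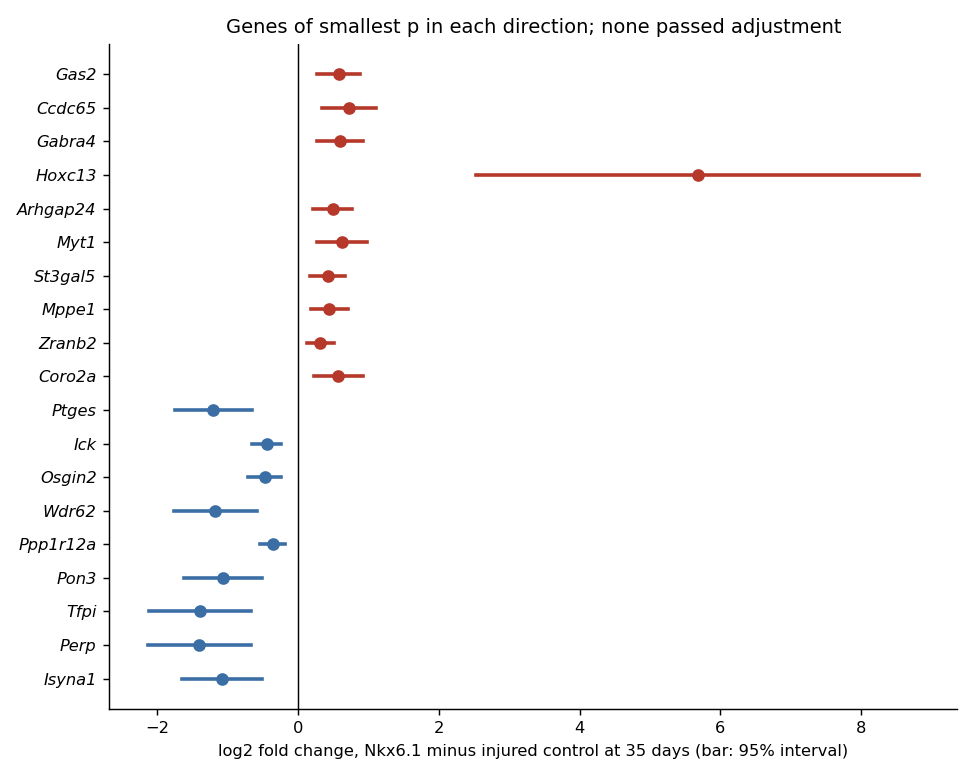
Log2 fold change of Nkx6.1 minus injured control at 35 days (x axis) with its 95% interval (bar) for 19 genes of smallest p (red higher, blue lower in Nkx6.1 cords; 3 against 4 libraries). Hoxc13 lies at 5.68 with the widest interval, and the other 18 lie between -1.41 and 0.72.

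Genes of phagocytes had lower values in Nkx6.1 cords throughout the list, although none passed the test. All 26 tested genes of a macrophage and phagocyte list had a log2 fold change below 0 and 16 had an unadjusted p under 0.05, beside 54.7% below 0 and 8.69% over all genes. Their median was -0.84, beside -0.03 over all genes, and was -1.45 without Nkx6.1 replicate 3. It was -0.64 without control replicate 4 and -0.53 with the caudal Hox covariate. Among libraries with Xist under 100 CPM (Nkx6.1 replicates 1 and 3, control replicates 2 and 3) it was -0.04. Among those of 100 CPM or more (Nkx6.1 replicate 2, control replicates 1 and 4) it was -2.06. For each list below with a median given under 100 CPM of Xist, the median at 100 CPM or more lay further from 0. Examples are -1.80 for fibrotic scar and 1.23 for GABA and glycine genes. With Xist log2 CPM as a covariate over all 32 libraries, the phagocyte median was -0.79 and the complement median -0.80. It was -0.78 for fibrotic scar, -0.51 for reactive astrocyte and 0.49 for GABA and glycine genes, nearer the medians without the covariate. The split by Xist also parts control replicates 1 and 4 from the other controls, so it cannot tell Xist from other traits of these libraries. Gpnmb, a glycoprotein of lipid-laden phagocytes, had 163, 117 and 317 CPM in Nkx6.1 cords, against 650, 360, 446 and 850 CPM in control cords. Ms4a7, a membrane protein of macrophages, had 4.58, 2.83 and 8.97 CPM in Nkx6.1 cords, against 17.7, 9.72, 11.4 and 25.3 CPM in control cords. These were the 2 separate members of 26, beside 2.57% of all genes separate and lower, and Nkx6.1 replicate 3 was the highest of its group for both.

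As mean log2 CPM, the phagocyte list stood at 5.74, 5.09 and 6.7 in Nkx6.1 cords, against 7.17, 6.19, 6.55 and 7.34 in control cords and 3.07, 3.12 and 2.86 in sham cords. Nkx6.1 replicate 3 lay within the control range, and all injured cords lay far above sham cords. Spp1 encodes osteopontin, a member of the list, and its promoter is shown because it holds the core of PU.1, the myeloid transcription factor, 113 bases before its start (RefSeq, GRCm38.p6, chr5:104434953-104435050, plus strand, core in capitals).
Spp1: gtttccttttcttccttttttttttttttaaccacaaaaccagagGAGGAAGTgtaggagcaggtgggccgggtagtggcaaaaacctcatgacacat
Of 19 list members with a window, 2 (10.5%) hold GAGGAAGT on either strand, beside 3% of all windows. The homeodomain core TAATTA also occurs in 2 of the 19 (10.5%), Ms4a7 and Cd163, beside 2.63% of all windows. These too are matches of letters in few windows and show no binding.

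Genes for the handling of lipid, taken up from myelin debris, had a median log2 fold change of -0.58, with 16 of 18 below 0 and 9 at an unadjusted p under 0.05. The median was -0.26 with the caudal Hox covariate and -0.10 among libraries with Xist under 100 CPM. Apoe, the lipoprotein that carries cholesterol out of phagocytes and astrocytes, had 5850, 4070 and 9270 CPM in Nkx6.1 cords, against 17400, 6890, 8220 and 17900 CPM in control cords. The groups overlapped through Nkx6.1 replicate 3, and the spread was wide in both. Soat1, which esterifies cholesterol for storage, did not overlap, at 40.7, 50.5 and 58.5 CPM in Nkx6.1 cords, against 72.8, 71.2, 72.2 and 73.7 CPM in control cords. Markers of resident microglia were below 0 in 14 of 14 genes, with a median of -0.46 and 4 at an unadjusted p under 0.05. That median was -0.77 without Nkx6.1 replicate 3, -0.24 without Nkx6.1 replicate 2, -0.33 with the caudal Hox covariate and above 0, at 0.09, among libraries with Xist under 100 CPM. Cx3cr1, the microglial receptor for fractalkine, had 110, 86.5 and 197 CPM in Nkx6.1 cords, against 278, 118, 144 and 209 CPM in control cords.

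Complement genes, which tag debris and synapses for phagocytosis, showed the same direction in 17 of 17 members, with 12 at an unadjusted p under 0.05. The median was -0.88, and it ranged from -1.45 without Nkx6.1 replicate 3 to -0.53 without control replicate 1, and was -0.53 with the caudal Hox covariate and -0.22 among libraries with Xist under 100 CPM. C2, a protease of the classical pathway, had 2.99, 1.25 and 4.68 CPM in Nkx6.1 cords, against 4.38, 11.6, 8.71 and 29.2 CPM in control cords. Control replicate 1 was the low control and control replicate 4 the high one.

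The medians of antigen presentation and interferon genes turned on Nkx6.1 replicate 3 and control replicate 4. Of the MHC class II list, 12 of 12 genes lay below 0 with a median of -0.45, which was -1.30 without Nkx6.1 replicate 3 and -0.04 without control replicate 4. It was -0.03 with the caudal Hox covariate and above 0, at 0.47, among libraries with Xist under 100 CPM. Ctss, the protease that frees MHC class II molecules of the invariant chain, had 318, 208 and 631 CPM in Nkx6.1 cords, against 779, 416, 496 and 829 CPM in control cords. Interferon gamma response genes had a median of -0.42 and lay below 0 in 18 of 18. That median was -1.27 without Nkx6.1 replicate 3, -0.05 without control replicate 4, -0.09 with the caudal Hox covariate and 0.40 among libraries with Xist under 100 CPM. Irf8, a factor of myeloid cells, had 31.1, 20.4 and 59.9 CPM in Nkx6.1 cords, against 95.8, 35.9, 41.8 and 90.3 CPM in control cords. Type I interferon genes had a median of 0.00, with 11 members above and 11 below 0, and of -1.16 without Nkx6.1 replicate 3, 0.30 without Nkx6.1 replicate 2, 0.28 without control replicate 4 and 0.36 with the caudal Hox covariate. Their mean log2 CPM was 2.77, 2.36 and 4.56 in Nkx6.1 cords, against 3.33, 3.39, 3.26 and 4.34 in control cords, so each group held 1 high library.

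Chemokines and cytokines had a median of -0.67, with 24 of 27 below 0 and 6 at an unadjusted p under 0.05. The median was -1.39 without Nkx6.1 replicate 3, -0.37 without Nkx6.1 replicate 2, -0.41 without control replicate 4, -0.30 with the caudal Hox covariate and -0.08 among libraries with Xist under 100 CPM. Il1b, the inflammatory cytokine interleukin 1 beta, had few reads, at 0.255, 0.166 and 0.641 CPM in Nkx6.1 cords, against 1.27, 1.08, 0.885 and 1.12 CPM in control cords. The groups did not overlap. Cxcr4, a receptor for the chemokine Cxcl12, had 11.1, 8.65 and 18.8 CPM in Nkx6.1 cords, against 31.3, 15.7, 22.3 and 33.7 CPM in control cords. Cxcl12 had 47.8, 68.9 and 59.1 CPM in Nkx6.1 cords, against 61.9, 84.5, 94.7 and 118 CPM in control cords. Both receptor and ligand overlapped between the groups by 1 library, and 15 of 15 genes of the cytokine receptor list lay below 0, with a median of -0.54 that was -0.95 without Nkx6.1 replicate 3 and -0.35 without Nkx6.1 replicate 2 and with the caudal Hox covariate.

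Fibroblast and scar genes had negative medians that were nearer 0 without control replicate 4. Markers of meningeal fibroblasts had a median of -1.61, with 16 of 17 below 0 and 11 at an unadjusted p under 0.05. It was -1.92 without Nkx6.1 replicate 3, -0.79 without control replicate 4, -0.92 with the caudal Hox covariate and -0.93 among libraries with Xist under 100 CPM. Foxc1, a forkhead factor of the meninges, had 7.57, 7.07 and 10.4 CPM in Nkx6.1 cords, against 10.1, 14.6, 19.6 and 59 CPM in control cords. Islr, a secreted protein of mesenchymal cells, had 12.1, 8.07 and 16.1 CPM in Nkx6.1 cords, against 7.8, 45.8, 51.2 and 179 CPM in control cords. Control replicate 1 lay with the Nkx6.1 cords for Islr and control replicate 4 far above all others.

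The fibrotic scar list was below 0 in 22 of 22 genes, with 6 at an unadjusted p under 0.05 and a median of -0.93. Its median was -1.59 without Nkx6.1 replicate 3, -0.22 without control replicate 4, -0.36 with the caudal Hox covariate and -0.30 among libraries with Xist under 100 CPM. Fn1, which encodes fibronectin, had 107, 172 and 215 CPM in Nkx6.1 cords, against 213, 308, 343 and 675 CPM in control cords. Col6a2, a chain of collagen VI, had 17.3, 21.6 and 34.9 CPM in Nkx6.1 cords, against 28.3, 51.6, 46.2 and 136 CPM in control cords. The mean log2 CPM of the list was 4.59, 4.53 and 6.08 in Nkx6.1 cords, against 4.76, 5.84, 5.82 and 7.11 in control cords and 3.31, 3.23 and 3.53 in sham cords. Chondroitin sulphate proteoglycans and tenascins, the neural part of the scar matrix, had a median of -0.11 (0.08 with the caudal Hox covariate), with 12 of 17 below 0 and none at an unadjusted p under 0.05.

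Genes of TGF-beta and BMP signalling, which drives scarring, were below 0 in 24 of 24, with 13 at an unadjusted p under 0.05 and a median of -0.59. The median was -0.29 without control replicate 4, -0.40 with the caudal Hox covariate and -0.28 among libraries with Xist under 100 CPM. Tgfbr1, the type I receptor, had 68.9, 68.3 and 107 CPM in Nkx6.1 cords, against 144, 104, 111 and 138 CPM in control cords. Bmp4, a ligand, did not overlap, at 4.2, 4.57 and 5.19 CPM in Nkx6.1 cords, against 8.12, 6.61, 8.56 and 23.6 CPM in control cords. Among neurotrophic factors the median was -0.05, with 10 of 17 below 0. Igf2, a growth factor made by meninges and vessels, had 39.6, 42.2 and 41.8 CPM in Nkx6.1 cords, against 61.9, 59.1, 95 and 405 CPM in control cords, where replicate 4 again stood apart.

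**Figure D3:**
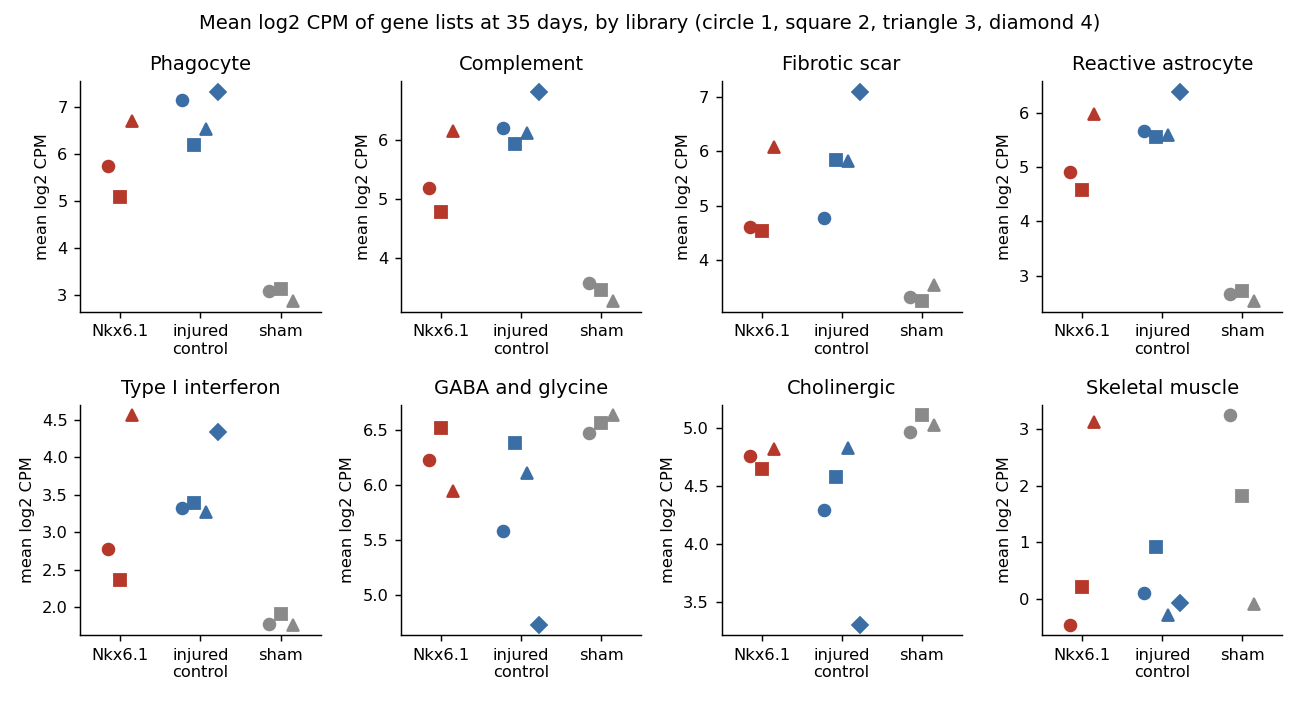
Mean log2 CPM (y axis) over the tested members of 8 gene lists in each library at 35 days, with Nkx6.1 cords (red, 3), injured control cords (blue, 4) and sham cords (grey, 3) from left to right. Nkx6.1 replicate 3 (triangle) lies among the control libraries for phagocyte genes, at 6.7, and highest for type I interferon genes, at 4.56, and control replicate 4 (diamond) is highest for fibrotic scar genes, at 7.11.

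Reactive astrocyte genes had a median of -0.54, with 20 of 21 below 0 and 6 at an unadjusted p under 0.05. The median was -1.08 without Nkx6.1 replicate 3, -0.29 without Nkx6.1 replicate 2, -0.32 without control replicate 4, -0.28 with the caudal Hox covariate and 0.01 among libraries with Xist under 100 CPM. Serping1, the inhibitor of complement C1 and a marker of reactive astrocytes, had 29, 20.5 and 61.8 CPM in Nkx6.1 cords, against 56.5, 70.5, 71.3 and 187 CPM in control cords. Cp, ceruloplasmin, which oxidises iron for export, had 37.1, 36.7 and 66.3 CPM in Nkx6.1 cords, against 50.2, 82.5, 85.1 and 162 CPM in control cords. The list's mean log2 CPM was 4.92, 4.59 and 5.98 in Nkx6.1 cords, against 5.65, 5.55, 5.6 and 6.39 in control cords and 2.66, 2.73 and 2.53 in sham cords, with control replicate 4 above the other control libraries. General astrocyte markers had a median of 0.03, with 8 of 14 above 0. Notch pathway genes had a median of -0.13, and Notch2 did not overlap, at 42.8, 47.6 and 52.9 CPM in Nkx6.1 cords, against 59.6, 70.3, 64.8 and 81.3 CPM in control cords. Hey2, a Notch target, was also separate, at 15.3, 16.3 and 16.7 CPM in Nkx6.1 cords, against 29.1, 19.6, 19.6 and 23 CPM in control cords.

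Neuronal genes lay mostly above 0. All 18 genes of GABA and glycine transmission had a log2 fold change above 0, with a median of 0.41 and 2 at an unadjusted p under 0.05 (3.61% of all genes were higher at that threshold). The median was 0.18 without control replicate 4, 0.23 with the caudal Hox covariate and -0.10 among libraries with Xist under 100 CPM. Gad2, which makes GABA, had 107, 147 and 67.1 CPM in Nkx6.1 cords, against 44.9, 102, 84.7 and 22.6 CPM in control cords. Glra2, a glycine receptor subunit, had 12.3, 14.3 and 7.11 CPM in Nkx6.1 cords, against 6.53, 9.85, 7.89 and 2.3 CPM in control cords. Control replicates 1 and 4 were the low libraries in both, and the others overlapped with the Nkx6.1 cords.

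Pan-neuronal genes had a median of 0.32 with 18 of 20 above 0, glutamatergic genes 0.35 with 15 of 19 above 0, and voltage-gated channels 0.38 with 20 of 21 above 0. Without control replicate 4 these medians were 0.15, 0.19 and 0.19, and with the caudal Hox covariate 0.12, 0.13 and 0.22. Among libraries with Xist under 100 CPM they were 0.19, 0.03 and -0.08. Syt1, the calcium sensor of vesicle release, had 174, 234 and 84.5 CPM in Nkx6.1 cords, against 110, 157, 116 and 52 CPM in control cords. Grin2d, an NMDA receptor subunit, had 49.3, 59.1 and 36.4 CPM in Nkx6.1 cords, against 29.2, 38.9, 39.8 and 28 CPM in control cords. Nkx6.1 replicate 3 was the lowest of its group for both genes. Cholinergic genes had a median of 0.37, with 11 of 13 above 0, which was 0.16 without control replicate 4, 0.11 with the caudal Hox covariate and 0.10 among libraries with Xist under 100 CPM. Ache, acetylcholinesterase, did not overlap, at 221, 212 and 190 CPM in Nkx6.1 cords, against 136, 173, 167 and 105 CPM in control cords. As mean log2 CPM the cholinergic list stood at 4.76, 4.65 and 4.82 in Nkx6.1 cords, against 4.29, 4.57, 4.82 and 3.3 in control cords and 4.96, 5.11 and 5.03 in sham cords.

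Immature neuron genes had a median of 0.23, with 7 of 12 above 0, which was 0.09 without control replicate 3, 0.10 without Nkx6.1 replicate 3, 0.11 without control replicate 4 and 0.12 with the caudal Hox covariate. Dcx, the microtubule protein of migrating young neurons, had 22.1, 21.6 and 10.4 CPM in Nkx6.1 cords, against 11.4, 12.4, 13.7 and 8.48 CPM in control cords. Nkx6.1 replicates 1 and 2 were above every control library and replicate 3 within them, and without replicate 3 Dcx passed the test (log2 fold change 0.93, edgeR adjusted p 0.0484). Tubb3, a neuronal tubulin, did not overlap, at 534, 443 and 530 CPM in Nkx6.1 cords, against 358, 408, 436 and 309 CPM in control cords.

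Transcription factors of the ventral cord, the domain that Nkx6.1 patterns in the embryo, had a median of -0.01 with 10 of 22 above 0. Lhx1, a LIM homeodomain factor of motor neurons and interneurons, had 4.2, 7.23 and 3.08 CPM in Nkx6.1 cords, against 1.59, 4.12, 4.06 and 0.669 CPM in control cords. Foxp1, which defines limb motor columns and is also made by other cells, had 35.6, 42 and 42.4 CPM in Nkx6.1 cords, against 54.5, 38, 38.1 and 69 CPM in control cords. Dorsal transcription factors were above 0 in 12 of 13, with a median of 0.25 that was 0.00 without Nkx6.1 replicate 2, 0.59 without Nkx6.1 replicate 3, 0.15 with the caudal Hox covariate and -0.04 among libraries with Xist under 100 CPM. Bhlhe22, a factor of dorsal interneurons, did not overlap, at 13.6, 16.7 and 12.1 CPM in Nkx6.1 cords, against 8.28, 9.72, 10.8 and 9.59 CPM in control cords. In the hedgehog pathway, which induces Nkx6-1 in the embryo, the median was -0.16. Its receptors' helpers Gas1 and Cdon had log2 fold changes of -0.91 ± 0.26 and -0.63 ± 0.21 (SE; edgeR adjusted p 0.326 and 0.337). Gas1 was 12, 12.5 and 14.4 CPM in Nkx6.1 cords, against 12.7, 21.1, 23.4 and 39.9 CPM in control cords.

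Myelin genes had a median of -0.17 with 17 of 18 below 0, and oligodendrocyte precursor genes -0.25 with 11 of 12 below 0, each with 1 gene at an unadjusted p under 0.05. Genes of cholesterol synthesis had a median of 0.14, cell cycle genes -0.21 and endothelial genes -0.26. Ribosomal protein genes were below 0 in 27 of 27, with a median of -0.32, and none reached an unadjusted p under 0.05. The median was -0.09 without control replicate 1, -0.19 without control replicate 4 and -0.36 with the caudal Hox covariate. It was above 0, at 0.37, among libraries with Xist under 100 CPM. Their mean log2 CPM was 7.91, 7.52 and 8.1 in Nkx6.1 cords, against 8.62, 7.59, 7.71 and 8.5 in control cords, where replicates 1 and 4 were high.

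Markers of other tissues moved with single libraries. All 14 skeletal muscle genes lay above 0, with a median of 1.59 that was -0.38 without Nkx6.1 replicate 3 and 1.04 with the caudal Hox covariate. Myh4, a fast muscle myosin, had 0.382, 0.499 and 20.3 CPM in Nkx6.1 cords, against 0.478, 0.742, 0.148 and 0.818 CPM in control cords. Ckm, muscle creatine kinase, had 0.955, 0.665 and 12.9 CPM in Nkx6.1 cords, against 0.557, 1.48, 1.03 and 0.669 CPM in control cords. Schwann cell genes, of the nerve roots and of invaded lesions, had a median of -0.37, with 13 of 14 below 0, and of 0.18 without control replicate 4. Their mean log2 CPM was 3.46, 3.57 and 4.53 in Nkx6.1 cords, against 2.68, 4, 4.5 and 5.36 in control cords. The part of these tissues in the other results was not tested.

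**Figure D4:**
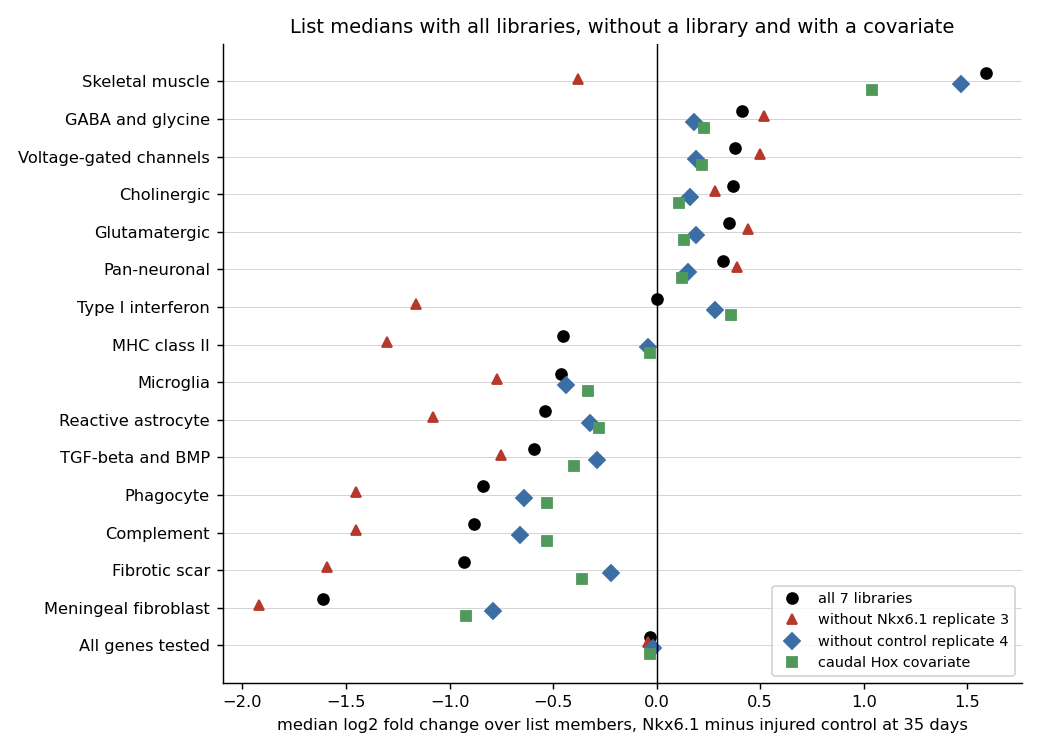
Median log2 fold change, Nkx6.1 minus injured control at 35 days (x axis), over the tested members of 15 gene lists and over all genes, with all 7 libraries (black circles), without Nkx6.1 replicate 3 (red triangles), without control replicate 4 (blue diamonds) and with the caudal Hox covariate (green squares). The phagocyte median is -0.84, -1.45, -0.64 and -0.53 in that order, and the skeletal muscle median is below 0, at -0.38, without Nkx6.1 replicate 3.

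The 72 genes called without Nkx6.1 replicate 3 had the same sign with all 7 libraries, and 67 of them had an unadjusted p under 0.05 there. Adjusted p ranged from 0.031 to 0.0493 by edgeR, so all lay near the threshold, and leaving out control replicate 4 as well left 0 calls. Of the 72, 9 are members of the gene lists. Called lower were 3 of 26 phagocyte genes (Tyrobp at -1.63, Lyz2 at -1.95 and Ctsd at -1.43), 2 of 24 TGF-beta and BMP genes and 2 of 17 complement genes, beside 0.406% of all genes, and 0 of the fibrotic scar and meningeal fibroblast lists. Single genes among the lower ones were Tgfbr2, the type II TGF-beta receptor (log2 fold change -1.10, SE 0.19), and Ripk1, a kinase of tumour necrosis factor signalling and necroptosis (-1.14, SE 0.20). The 5 higher genes were Dcx, Ebf3, a factor of neuronal differentiation (0.81), Celf5, a neuronal splicing factor (0.77), the T-type calcium channel gene Cacna1g (0.75) and Wdr6 (0.60). Apart from list members, the genes named here were picked after their values were seen.

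The effect of Nkx6.1 at 35 days was set against its effect at 3 days in 1 interaction contrast, each within its own time. It called 376 genes (2.3% of 16314), of which 305 (1.87%) had a lower and 71 (0.435%) a higher log2 fold change at 35 days than at 3 days. For 304 genes the log2 fold change was above 0 at 3 days and below 0 at 35 days, for 70 it was the reverse, and 2 kept 1 sign. These are signs of estimates, and the comparison at 35 days on its own called no gene. Of the 376 genes, 35 were also called at 3 days. The groups were separate at 35 days for 77 of the 376 and at both times for 40. At 35 days, leaving out control replicate 1 or 4 or Nkx6.1 replicate 1 or 2 ended all calls, as did leaving out control replicate 2 or 3 or Nkx6.1 replicate 1 or 2 at 3 days. Without 1 of the other 5 libraries the count was 672 to 3614. It was 33 with the replicate number as a block, and 0 with the caudal Hox covariate. Called members were 10 of 26 phagocyte genes, 6 of 24 TGF-beta and BMP genes, 5 of 18 lipid genes and 4 of 17 complement genes, all lower at 35 days.

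The 4 genes of smallest p with separate groups at both times were Itih3, Syk, Cd300a and Pon3. Syk, the kinase that signals below Fc receptors of phagocytes, had 83.1, 93.1 and 43.8 CPM in Nkx6.1 cords, against 40.5, 22.2 and 30.6 CPM in control cords at 3 days. At 35 days it had 10.2, 8.98 and 19.9 CPM in Nkx6.1 cords, against 29.3, 21.1, 21.3 and 30.9 CPM in control cords. The order of the groups was therefore opposite at the 2 times, and the log2 difference of the effects was -2.21. Cd300a, an inhibitory receptor of myeloid cells, had 38.2, 44.3 and 18 CPM in Nkx6.1 cords, against 14.3, 9.17 and 8.77 CPM in control cords at 3 days. At 35 days it had 5.98, 6.65 and 9.55 CPM in Nkx6.1 cords, against 18.4, 10.4, 12 and 19.5 CPM in control cords, a log2 difference of -2.66. Pon3 had 29.9, 27.9 and 16.3 CPM in Nkx6.1 cords, against 15.9, 13.5 and 14.5 CPM in control cords at 3 days, and its log2 difference was -1.82. Itih3, which stabilises hyaluronan, went the other way. It had 27.8, 38.5 and 37.3 CPM in Nkx6.1 cords, against 47.8, 116 and 134 CPM in control cords at 3 days. At 35 days it had 153, 178 and 179 CPM in Nkx6.1 cords, against 109, 143, 144 and 109 CPM in control cords, a log2 difference of 1.95.

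**Figure D5:**
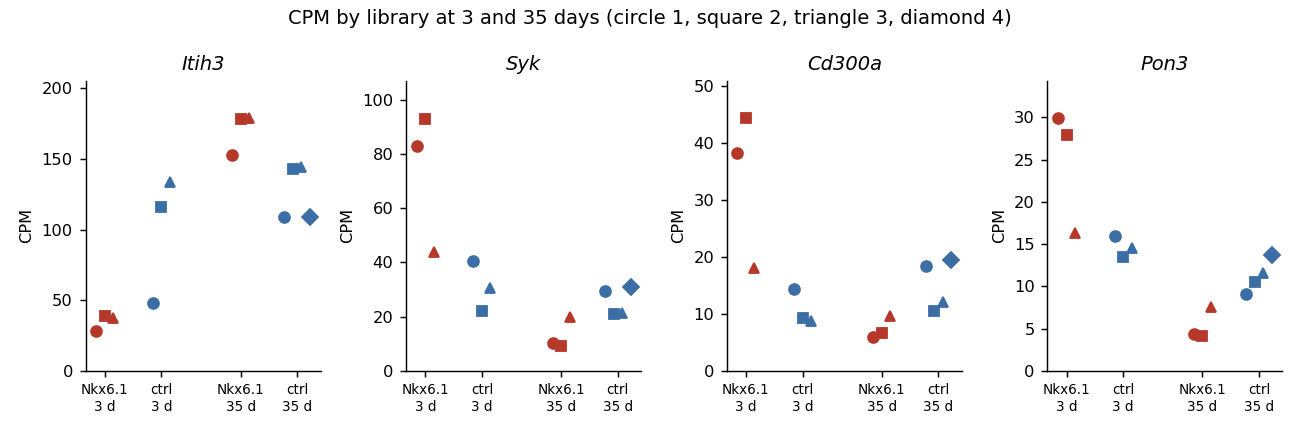
CPM (y axis, linear from 0) of the 4 genes in each library at 3 and 35 days, with Nkx6.1 cords (red) left of injured control cords (blue) at each time. Syk lies between 43.8 and 93.1 CPM in Nkx6.1 cords at 3 days, above all control libraries, and between 8.98 and 19.9 CPM at 35 days, below all control libraries.

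Nkx6.1 and Gsx1 cords at 35 days were compared directly. edgeR called 0 of 16314 genes (0%), with 393 (2.41%) at an unadjusted p under 0.05, and DESeq2 called 0, with 428. Of 11001 genes with a mean of at least 10 CPM in these 7 libraries, 97.1% had a 95% interval within a 2-fold change either way. The genes of smallest p without overlap were Zfp536, Hipk2, Cep128 and Dctpp1. Zfp536, a zinc finger repressor of neuronal differentiation, had 31.9, 31.9 and 31.6 CPM in Nkx6.1 cords, against 41.9, 38.7, 35.7 and 43.6 CPM in Gsx1 cords (log2 fold change -0.33 ± 0.08, SE; edgeR adjusted p 1). Hipk2, a kinase that acts on homeodomain factors, had 66.5, 82.9 and 88.9 CPM in Nkx6.1 cords, against 116, 120, 115 and 110 CPM in Gsx1 cords. The phagocyte list had a median log2 fold change of -0.01 between Nkx6.1 and Gsx1 cords, complement genes -0.13 and GABA and glycine genes -0.05. Skeletal muscle genes had 2.91, with the high values in Nkx6.1 replicate 3.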

How the data were processed

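RNA-seq was made from total RNA of snap-frozen cord, paired-end, per the labels' protocols. The authors deposited raw counts per gene symbol, unnormalized. The submitters' processing notes list HISAT2, SAMtools, HTSeq and DESeq2, with builds GRCm38 and mm10. The sources used here give no annotation or strand setting, so overlapping, antisense and near-identical genes (MHC, interferon-inducible and globin families) are uncertain.

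Genes were filtered with edgeR (minimum count 10, minimum total 15), which left 16314 of 23420. All 32 libraries, as 10 groups without covariates, entered the quasi-likelihood F test of edgeR (version 4.0.16 in R 4.3.3) with TMM scaling. Calls needed an adjusted p (Benjamini-Hochberg) under 0.05. The code was tested on simulated data. CPM values use TMM scaling. DESeq2 1.42.0, other scalings, filters, covariates, a replicate block and leaving out each library were alternatives. Members, lists and comparisons were chosen with earlier results of these data known.

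Named genes were Nkx6-1 and Gsx1, the 10 called genes of largest change per direction or, as here with 0 called, the 10 of smallest p with a mean of at least 1 CPM, no overlap of the groups and no predicted name. They also included up to 2 members of smallest p per list described, and 4 genes for each further comparison. Same-numbered libraries were treated as unpaired. Pearson's r of their deviations from the group means was 0.0929, 0.229 and -0.0337 across genes at 35 days, which does not exclude a shared source. No 2 of the 7 libraries agreed within counting noise (chi-square per degree of freedom at least 7.2). The 115 genes named in tables were matched to GENCODE vM21 (GRCm38, 1-based coordinates). Some genes that this rule takes are not reported here.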

Additional observations from a re-analysis of the deposited data

Results flagged for a closer look

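A control library stood far from the other control libraries in 5 of 77 checks over genes and lists, where chance marks about 1 in 20 groups of 4. These shares are close, and the checks use the same libraries, so they are not independent. Control replicate 4 had 125 CPM of Isyna1, a pan-neuronal mean log2 CPM of 7.65, a reactive astrocyte mean of 6.39 and a type I interferon mean of 4.34. Control replicate 1 had a mean of 7.68 over genes of oxidative phosphorylation.

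The Nkx6.1 effect differed between 35 and 3 days, by the interaction test, for 12 of the 28 named genes checked, beside 2.3% of all genes. Itih3, Syk, Cd300a and Pon3 were picked because they passed this test. The rest of the 12 were picked for their values at 35 days, which enter it. Genes named only as list members were not checked here, and some of these, such as Apoe and Cxcr4, also passed. As the log2 difference of the effects, Gas2 was at 0.81, Ccdc65 at 1.05, Gabra4 at 0.94, Mppe1 at 0.73 and Itih3 at 1.95. Ptges was at -1.38, Ick at -0.58, Wdr62 at -1.87, Pon3 at -1.82, Syk at -2.21, Cd300a at -2.66 and Zfp536 at -0.54. These calls share the instability of that contrast, which called 0 genes without some single libraries.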

How the results depend on the processing

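Between Nkx6.1 and control cords, 0 genes were called under other scaling (RLE), DESeq2, no filter, a stricter filter, the replicate block and with covariates for Xist, for caudal Hox genes, or for H2-Bl and Rpl29, which vary between libraries of 1 group. The 7 libraries alone gave 1 higher gene, with 539 of 15480 genes at an unadjusted p under 0.05 by edgeR. With all 32 libraries in the model, 2006 of 16314 genes reached that threshold. That share was above 0.05, while the share with the 7 libraries alone was below it. Leaving out 1 library gave 0 to 5 higher and 0 to 67 lower genes, with the 67 without Nkx6.1 replicate 3 and 7 without control replicate 1. The contrast of the 35-day and 3-day effects, with 376 genes, was the least stable. It called 1265 genes by DESeq2, 224 without a filter, 799 with Xist as a covariate, and 0 with the compared groups alone, with only libraries under 100 CPM of Xist, with the H2-Bl and Rpl29 covariates, and with the caudal Hox one. It ranged from 0 (without any of 8 libraries) to 3614 when 1 library was left out, highest without Nkx6.1 replicate 3 at 3 days. With the replicate number as a block it called 33, and no label ties the numbers to a shared source. Same-numbered deviations correlated at 0.0929, 0.229 and -0.0337 at 35 days and at 0.186, -0.273 and 0.0575 at 3 days, short of pairing, although replicate 3 had the highest and replicate 1 the lowest caudal Hox sum in each of the 3 injured groups at 3 days. Nkx6.1 against Gsx1 gave 0 under all alternatives run. The cause of these shifts was not tested.

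Of the named genes, some changed sign, none of them called. With only libraries under 100 CPM of Xist, Nkx6-1 was at 0.06, Lhx1 -0.16, Foxp1 0.04, Syt1 -0.07, Gad2 -0.10, Cx3cr1 0.23, Apoe 0.00, Ctss 0.05, Irf8 0.23 and Irf1 0.14 (log2 fold change). Without control replicates 1 and 4 together, Foxp1 was at 0.07 and Cx3cr1 at 0.00. Without 1 library, Myh4 ranged from -0.33 to 4.24 and Ckm from -0.20 to 2.86, both lowest without Nkx6.1 replicate 3. Without that library and control replicate 4 they were at -0.09 and -0.34, and Myh4 was at -0.30 with only libraries at 100 CPM of Xist or more. Depth limits the scarce genes most, such as Il1b and the caudal Hox genes.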

Other observations

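The caudal Hox level was uneven in the injured groups as a whole. Summed over the same 10 genes, it was 4.62, 14 and 44.5 CPM in Nkx6.1 cords and 5.59, 23.5 and 64.5 CPM in control cords at 3 days. Control cords at 14 days had 70, 70.7 and 36.3 CPM. Replicate 3 was the highest library of each of these groups at 3 days, where it was also the highest Gsx1 library, at 65.7 CPM against 5.59 and 9.13 CPM. These values were looked up after Hoxc13 was seen among the named genes, and their part in the comparisons at other times was not tested.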
